A study of Arabidopsis thaliana and Nicotiana benthamiana and Solanum lycopersicum with 20 samples.

Results

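Binding of the transcription factors (TFs) GLK1 and GLK2 in tomato leaf was compared from 4 lists of ChIP-seq peak summits, 2 replicates for each TF, out of 20 such lists from 5 plant species. A summit entered as reproducible when the other replicate of the same TF held a summit less than 150 bp away. The GLK1 lists held 31339 reproducible summits of 55028 in replicate 1 (57.0%) and 30251 of 38527 in replicate 2 (78.5%). The GLK2 lists held 39433 of 55771 in replicate 1 (70.7%) and 39380 of 53600 in replicate 2 (73.5%). Reproducible summits of both TFs with gaps below 150 bp were joined into 40097 sites, each given here by its first and last summit on the SL4.0 tomato assembly. Fold changes played no part in joining summits into sites. They did choose which sites are named below, and the sites with the widest gaps were chosen for their difference between the TFs.

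GLK (GOLDEN2-LIKE) proteins are plant TFs of the GARP family that activate nuclear genes for chloroplast development, among them genes of chlorophyll synthesis and of the light-harvesting antenna. Land plants often carry a pair of GLK genes with overlapping roles in leaves. In tomato, GLK2 is best known from the green shoulder of the unripe fruit, while GLK1 is the copy chiefly used in leaves.

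Both TFs were overexpressed as tagged proteins, and chromatin was taken from fully expanded leaves. According to the methods, the plants were stable transgenic lines with a GFP tag, GLK1 in the cultivar AC++ and GLK2 in Micro-Tom, a cultivar whose own GLK2 gene carries a loss-of-function mutation. The series' design text speaks of transient expression instead. The labels name an HA antibody for GLK1 replicate 1, a GFP antibody for GLK1 replicate 2 and GLK2 replicate 1, and both antibodies for GLK2 replicate 2. TF and cultivar cannot be told apart in this design, and the binding measured is that of an overexpressed protein, not of the native one. Peak lists hold no reads and no expression values, so the leaf label was not checked against marker genes. The study gives the sequencing depth only as a range over all tomato samples, and the depth behind each list was not used here. Its quality values give a higher fraction of reads in peaks for both GLK2 libraries than for both GLK1 libraries. Whether this bears on the fold changes below was not tested. The fold change of a summit, the measure ranked below, is the enrichment over a control that the peak caller gave it. What that control was is not given in the sources used here.

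At the genes of chlorophyll synthesis the TFs bound the same sites, all within the first 7.45% of ranks in every library. Of 18 pathway genes, 13 carried a label that could be tied to a site, 16 sites in all, and all 16 had a reproducible summit in each of the 4 lists. Strong GLK1 sites were generally shared: of 1270 sites within the first 1500 ranks of both GLK1 lists, 99.0% were also GLK2 sites. The labels were tied to sites through GLK1 fold changes, so presence in the GLK1 lists was fixed by the matching. The labels come from the study's own choice of targets on these libraries, so high ranks of these sites are no independent result. Ranks here run over the 19930 sites with a reproducible summit in all 4 lists, rank 1 having the highest fold change. The median rank of the 16 sites was 262 and 260 in the GLK1 lists (replicates 1 and 2) against 244 and 237 in the GLK2 lists.

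Early steps of the pathway come first. HEMA (glutamyl-tRNA reductase, which commits glutamate to tetrapyrrole synthesis; chr4:59789826-59789853) had fold changes of 281 and 192 in GLK1 replicates 1 and 2, against 428 and 414 in the GLK2 replicates. Its ranks were 47 and 62 in GLK1 and 34 and 36 in GLK2, so the GLK2 libraries were higher on both measures without overlap. GSA (the aminotransferase that forms aminolevulinic acid; chr4:51582581-51582593) ranked 271 and 347 in GLK1 against 215 and 221 in GLK2. HEMB (aminolevulinic acid dehydratase; chr8:56208753-56208775) was the weakest of the 16, with fold changes of 28.7 and 18.7 in GLK1 and 53.8 and 46.8 in GLK2. It ranked 1455 and 1485 in GLK1 against 988 and 1156 in GLK2, and again no GLK1 library reached a GLK2 library. HEMC (porphobilinogen deaminase; chr7:67738548-67738613) and HEME (uroporphyrinogen decarboxylase; chr6:29302110-29302153) likewise ranked higher in both GLK2 libraries, at 476 and 486 in GLK1 against 365 and 303 in GLK2 for HEMC. HEME stood at 557 and 554 in GLK1 against 405 and 277 in GLK2. HEMF (coproporphyrinogen oxidase; chr10:64775034-64775080) ranked 674 and 923 in GLK1 and 655 and 658 in GLK2, a small gap in the same direction.

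The branch toward chlorophyll showed no common direction. CHLH, the large subunit of magnesium chelatase (chr4:6071332-6071361), had fold changes of 221 and 174 in GLK1 and 277 and 224 in GLK2. Its ranks of 78 and 77 in GLK1 and 79 and 134 in GLK2 put both GLK1 libraries ahead. CHLI, another subunit of that enzyme (chr10:2700490-2700508), ranked 377 and 315 in GLK1 against 566 and 528 in GLK2. CHLM, the magnesium protoporphyrin methyltransferase (chr3:61612141-61612171), ranked 253 and 272 in GLK1 and 273 and 253 in GLK2, and the groups overlapped. CRD1, a subunit of the cyclase that closes the fifth ring (chr10:59044421-59044428), also overlapped, at 126 and 91 in GLK1 and 120 and 113 in GLK2. One site carried the labels of both HEMG (protoporphyrinogen oxidase) and CRD1 (chr1:70741024-70741046) and ranked 535 and 524 in GLK1 against 677 and 871 in GLK2. HEMG acts before the branch, so under that label this site belongs with the early steps. It ran against the direction of the early sites above.

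The study lists 3 values under both POR, the light-dependent protochlorophyllide reductase, and HEMF, so which gene lies at these sites is not settled here. They included the strongest of the set. The HEMF/POR site chr7:62491053-62491065 had fold changes of 466 and 397 in GLK1 and 523 and 539 in GLK2, with ranks of 16 and 10 in GLK1 and 18 and 15 in GLK2. The HEMF/POR site chr10:1220078-1220088 ranked 44 and 39 in GLK1 against 24 in both GLK2 libraries, and the HEMF/POR site chr12:4592122-4592157 ranked 158 and 138 in GLK1 and 121 and 143 in GLK2. The groups were apart only on chromosome 10 among these 3. CAO (chlorophyllide a oxygenase, which makes chlorophyll b) had a site on chromosome 6 (chr6:35965801-35965943) with ranks of 33 and 37 in GLK1 and 28 and 29 in GLK2. Its site on chromosome 11 (chr11:5702825-5702840) ran the other way, with ranks of 311 and 247 in GLK1 against 376 and 332 in GLK2.

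**Figure D1:**
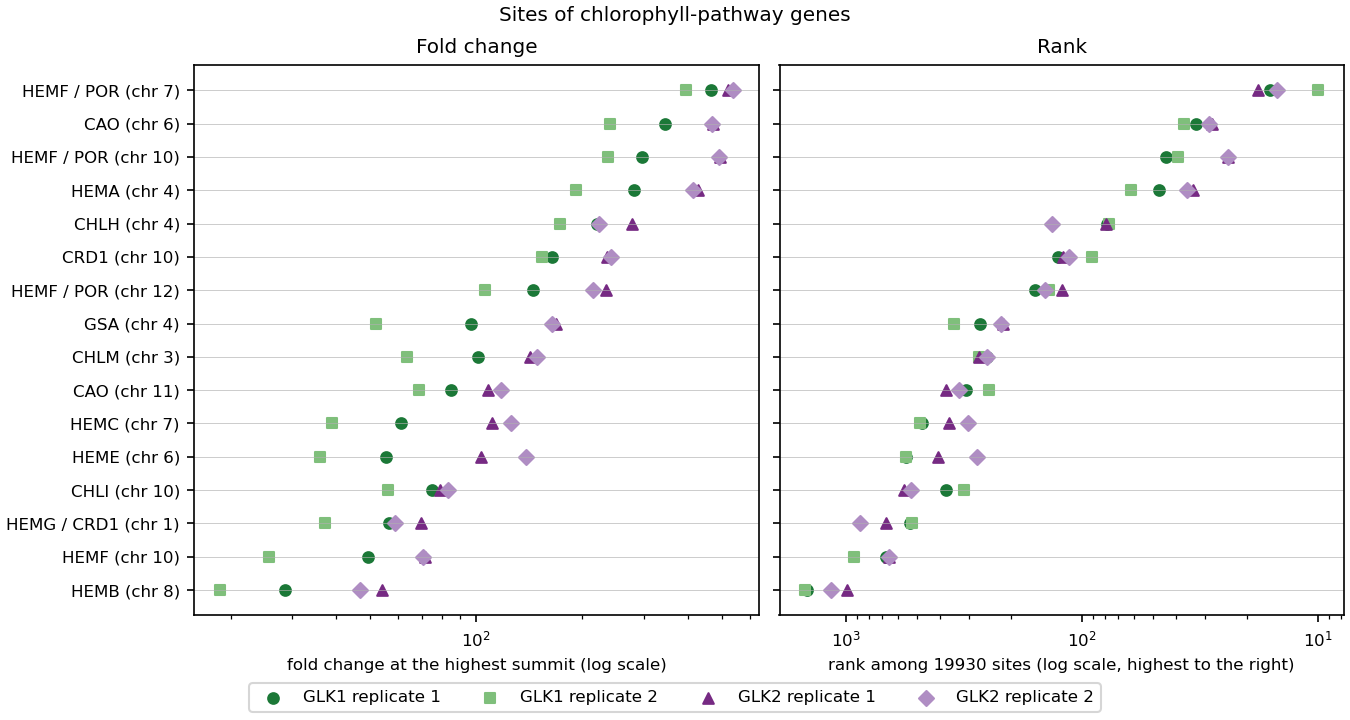
Fold change (left, log scale) and rank (right, log scale, highest to the right) of the highest summit at 16 sites labelled with chlorophyll-pathway genes, 1 symbol per library. In fold change both GLK2 libraries lie right of both GLK1 libraries at all 16 sites, while in rank GLK1 was higher at 7 sites and GLK2 at 9. Sites named HEMF / POR carry the labels of both genes.

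Fold change and rank thus gave different pictures of the same 16 sites. Fold changes were higher in both GLK2 libraries than in both GLK1 libraries at 16 of 16 sites. The same held for 74% of the first 100 sites by mean log rank over the 4 libraries and 73.3% of the next 900, the bands that hold 5 and 10 of the 16. In rank, GLK1 was higher at 7 sites and GLK2 at 9, and the TFs did not overlap at 12 of 16 (4 with GLK1 higher and 8 with GLK2 higher). That is close to the 75% of the first 100 sites and 79.0% of the next 900, and 61.1% of all sites did not overlap. A limma fit on the normal scores of the ranks (the rank turned into the matching value of a standard normal distribution) gave a median difference, GLK1 minus GLK2, of -0.05 over the 16 sites, beside 0.02 over all sites. None of the 16 reached an unadjusted limma p below 0.05, against 10% of the first 100 sites, 12.6% of the next 900 and 26.7% of all sites in either direction. The fit draws the spread of each site toward a common value for all ranks, although replicates differ least at the top. Standard errors of the 16 lay between 0.17 and 0.18, and their differences were at most 0.21 in size, so this test cannot decide for them. On the log2 fold change itself, centred on the library median, limma with Benjamini-Hochberg adjustment called 5 of the 16 (HEMB, HEMC, HEME, HEMF and GSA) higher in GLK2, where 17% of the first 100 sites, 40.1% of the next 900 and 14.8% of all sites were called higher in GLK2, and 8.97% of all sites higher in GLK1. The 5 of 16 lie between the shares of the bands of like rank. HEME had the largest of these differences, -1.19 ± 0.27 (log2, SE, adjusted p = 0.00568), and HEMF lay at the threshold (adjusted p = 0.04997).

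The strongest sites of the leaf were also shared. The leading sites of each TF were picked among shared sites, but they held the same ranks in the whole lists of that TF. The site chr2:42315613-42315614 had the highest fold change of both GLK1 lists, 827 and 695, against 692 and 697 in the GLK2 lists, where it ranked 7 and 6. The site chr11:36590034-36590037 had the highest fold change of both GLK2 lists, 1175 and 1161, and stood at 757 and 433 in the GLK1 lists, where it ranked 2 and 7. These 2 sites were the overlap between the 6 leading sites of GLK1 and the 6 leading sites of GLK2. Among the other leading sites of GLK1 were chr5:3489859-3489871 (ranks 3 and 2 in GLK1, 9 and 12 in GLK2), chr9:60302831-60302834 (5 and 3 in GLK1, 10 and 9 in GLK2), chr2:38519334-38519348 (4 and 8 in GLK1, 21 and 22 in GLK2) and chr4:2631854-2631872 (6 and 4 in GLK1, 33 and 31 in GLK2). These 4 were chosen by their GLK1 rank, so a lower rank in GLK2 says little.

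Among the leading sites of GLK2, likewise chosen by GLK2 rank, chr6:41063629-41063683 had fold changes of 471 and 308 in GLK1 and 1051 and 1099 in GLK2. It held rank 2 in both GLK2 lists and ranks 14 and 25 in GLK1. The site chr2:37353978-37353985 ranked 10 and 22 in GLK1 against 3 in both GLK2 lists, and chr7:67491687-67491701 ranked 11 and 16 in GLK1 against 4 in both GLK2 lists. By contrast chr3:59913465-59913510 ranked 7 and 5 in GLK1 and 5 in both GLK2 lists, which overlap. The leading site of each of the 12 chromosomes lay within the first 67 ranks of every library, and its fold change was between 237 and 1175. GLK1 had the higher mean normal score at 6 of these 12 and GLK2 at 6, with no overlap between the TFs at 9. That is like the first 100 sites, where 75% did not overlap, beside 61.1% of all shared sites. The leading site of chromosome 10 is the HEMF/POR site above; no gene was assigned to the other leading sites, because no tomato annotation was used here.

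Across all 19930 shared sites the TFs differed more from each other than the replicates of either did. Spearman's rho of the fold changes was 0.803 between the GLK1 replicates and 0.907 between the GLK2 replicates, and 0.645 to 0.681 over the 4 pairs of a GLK1 and a GLK2 library. These are descriptions across sites, which are not independent replicates, and pairs share libraries. The median difference in percentile of rank was 9.51 points between GLK1 replicates and 6.22 points between GLK2 replicates, against 13.1 to 14.3 points between the TFs. Of the 1000 highest sites of 1 library, 86.7% (95% Wilson interval 84.5 to 88.7%) were among the 1000 highest of its replicate for GLK1 and 93.8% (92.1 to 95.1%) for GLK2. Between the TFs the share was 68.9 to 71.0%.

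**Figure D2:**
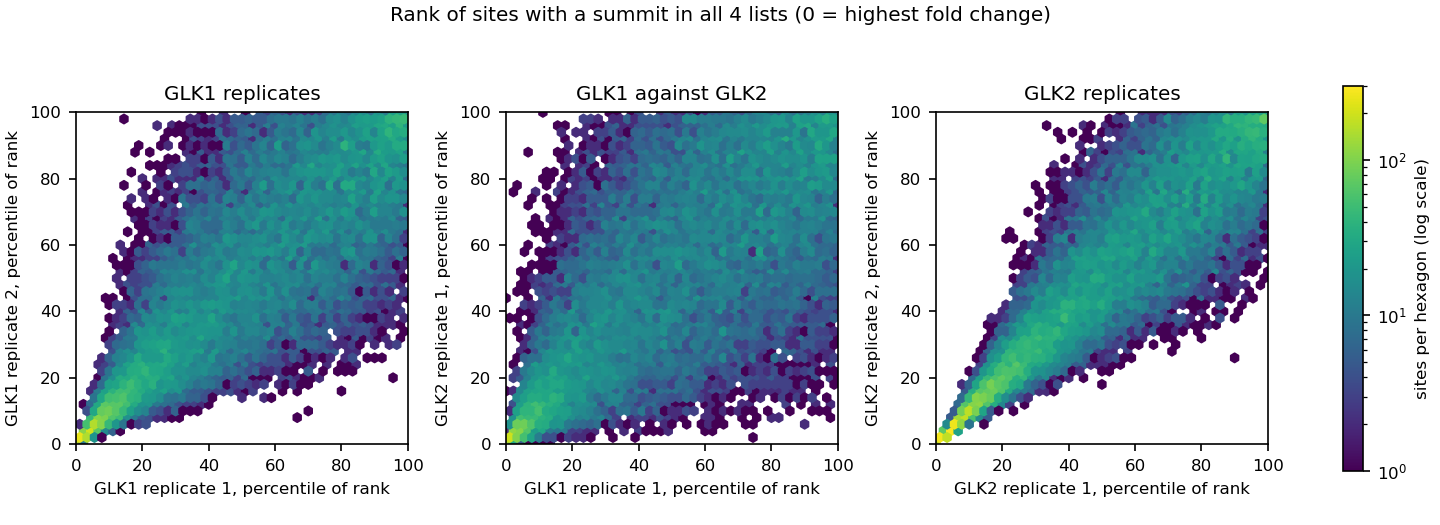
Percentile of rank at 19930 sites with a summit in all 4 lists (0 is the highest fold change), for the GLK1 replicates (left), GLK1 replicate 1 against GLK2 replicate 1 (middle) and the GLK2 replicates (right), coloured by sites per hexagon on a log scale. The cloud is narrow at the top ranks in each panel and widest in the middle panel, where rho was 0.681, against 0.803 (left) and 0.907 (right).

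The excess of the TF difference over the replicate difference was largest in proportion at the top of the lists. For the 100 leading sites by mean log rank, the median difference in normal score was 0.07 between GLK1 replicates and 0.02 between GLK2 replicates, against 0.15 to 0.18 between the TFs. For sites ranked below 10000 the same medians were 0.48 and 0.37 between replicates and 0.58 to 0.61 between the TFs. The ranks of the TFs did not overlap at 75% of the first 100 sites, at 79.0% of the next 900 and at 52.1% of those below rank 10000. Summit positions differed little by TF: the highest summits of a site lay a median of 28 bp apart in the GLK1 replicates and 25 bp in the GLK2 replicates, and 30 to 35 bp apart between the TFs.

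No single site passed the test of a rank difference. In the limma fit over 19930 sites, 0 sites (0%) were called higher in GLK1 and 0 (0%) higher in GLK2 at an adjusted p below 0.05, the smallest adjusted p being 0.0952. At an unadjusted p below 0.05 there were 5314 sites, 2668 with GLK1 higher and 2646 with GLK2 higher. The same test on centred log2 fold changes called 1788 sites higher in GLK1 and 2945 higher in GLK2, so the count of calls depends on the scale. With 2 libraries against 2, an exact permutation test of 1 site cannot go below p = 0.33.

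By size alone, 2894 sites (14.5%) ranked at least 10 percentile points higher in both GLK1 libraries than in both GLK2 libraries, and 2918 (14.6%) at least 10 points higher in both GLK2 libraries. Just inside the limit, 379 sites were 10 to 12 points higher in GLK1 and 345 in GLK2. Just outside it, 480 sites were 8 to 10 points higher in GLK1 and 413 in GLK2. Such shifts are scarce at the top of the percentile scale by construction: among the first 1000 sites there were 2 in each direction, which also leaves little room for one at the chlorophyll-pathway sites, where there were 0. The sites shifted up in GLK1 had a median width of 124 bp against 109 bp for those shifted up in GLK2 and 105 bp for the other shared sites. More than 1 summit in a list was found at 47.5%, 41.6% and 40.0% of these groups in the same order, and the nearest other site lay at a median of 892, 1098 and 923 bp.

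The 8 sites with the widest gap in rank toward GLK1 included binding that was strong in GLK1 and in the middle or lower part of the list in GLK2. They were chosen for this gap, so the values are a description. The site chr7:52006649-52006776 had fold changes of 144 and 139 in GLK1 and 9.03 and 6.90 in GLK2, with ranks of 159 and 99 in GLK1 against 8916 and 11791 in GLK2. Its mean fold change was 17.8 times higher in GLK1. The site chr4:60940737-60940754 followed, with fold changes of 65.4 and 43.1 in GLK1 and 5.13 and 6.77 in GLK2. At chr9:53010935-53011065 the fold changes were 46.6 and 22.3 in GLK1 and 5.08 and 5.39 in GLK2, and at chr3:56116126-56116255 they were 30.7 and 19.0 in GLK1 and 4.13 and 4.04 in GLK2. The remaining 4 were weaker, with GLK1 fold changes between 7.07 and 13.0 and GLK2 fold changes between 2.69 and 3.70: chr4:49403158-49403356, chr4:61412681-61412752, chr4:62725399-62725652 and chr5:5802220-5802281. Of the 8 sites, 3 lay between 60 and 65 Mb of chromosome 4, which held 472 (2.37%) of the 19930 shared sites. That segment was singled out for its excess of GLK1 summits in the same lists, as given below, so this is no independent result.

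Toward GLK2 the widest gaps included chr9:5903471-5903501, with fold changes of 5.78 and 3.90 in GLK1 and 80.3 and 77.3 in GLK2, a mean 16.3 times higher in GLK2. It ranked 14754 and 16431 in GLK1 against 557 and 574 in GLK2. The site chr9:30647151-30647274 had fold changes of 4.24 and 3.06 in GLK1 and 31.0 and 27.4 in GLK2. On the same chromosome chr9:63718605-63718666 had 3.20 and 3.52 in GLK1 and 28.5 and 28.8 in GLK2, and chr3:4452352-4452475 had 3.93 and 2.96 in GLK1 and 20.4 and 19.3 in GLK2. These 4 were the stronger ones of the set. The others, chr2:43768469-43768582, chr4:51162431-51162497, chr11:586146-586345 and chr11:5838038-5838056, had fold changes of at most 3.08 in GLK1 and between 5.24 and 12 in GLK2. Sites join neighbouring summits, and the widest of these sets spanned 254 bp toward GLK1 and 200 bp toward GLK2. At chr11:586146-586345 the summits lay apart, at 586168 and 586146 in GLK1 and 586345 and 586285 in GLK2. At chr4:62725399-62725652, the widest site toward GLK1, both GLK1 summits likewise lay at higher coordinates than both GLK2 summits. All 16 sites shared 1 adjusted p of 0.0952 in the rank fit of limma.

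**Figure D3:**
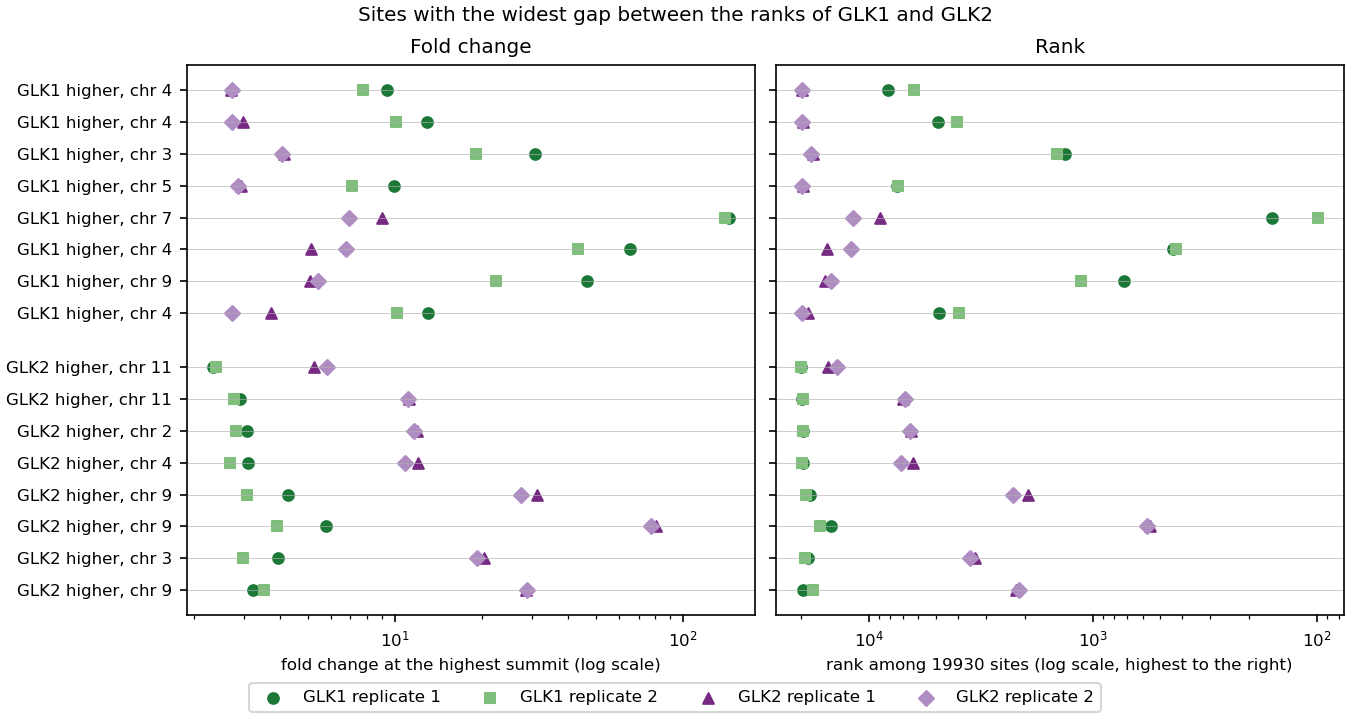
Fold change (left, log scale) and rank (right, log scale, highest to the right) at the 8 sites with the widest rank gap toward GLK1 (top) and the 8 toward GLK2 (bottom), 1 symbol per library. The TFs lie far apart, as the choice of sites requires, the widest in fold change being the chromosome 7 site at 144 and 139 in GLK1 against 9.03 and 6.90 in GLK2.

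Sites bound reproducibly by 1 TF were many and mostly weak. Of the 40097 sites, 19930 (49.7%) had both TFs, 7300 (18.2%) GLK1 alone and 12867 (32.1%) GLK2 alone. Counted by TF, 73.7% (95% Wilson interval 73.1 to 74.2%) of 27723 GLK1 places lay less than 150 bp from a GLK2 place, and 61.7% (61.2 to 62.3%) of 33627 GLK2 places less than 150 bp from a GLK1 place. The intervals cover counting error only. Median fold changes of GLK1-only sites were 4.75 and 3.96 in the GLK1 replicates, and those of GLK2-only sites 4.92 in both GLK2 replicates, while shared sites had medians between 5.87 and 8.13 over the 4 libraries. Many of these sites did carry an unreproduced summit of the other TF: 3711 of the GLK1-only sites (50.8%) and 6163 of the GLK2-only sites (47.9%) had none in either list of the other TF. Several summits in 1 list were found at 14.2% of GLK1-only, 17.0% of GLK2-only and 41.3% of shared sites.

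A few places of 1 TF were strong. The site chr11:43269170-43269194 had fold changes of 84.9 and 51.9 in GLK1, with the nearest GLK2 summit 545965 bp away. The other leading GLK1 place without GLK2, chr7:58970201-58970204, had 44.0 and 41.7 and lay 276 bp from a GLK2 summit, beside the leading site of chromosome 7 (chr7:58969889-58969925). For GLK2, a place on unplaced sequence (chromosome 0 of the assembly, 6343907 to 6343909) had fold changes of 493 and 489, and the nearest GLK1 summit lay 108630 bp away. The other, chr11:36589746-36589750, had 206 in both GLK2 replicates and lay 287 bp from a GLK1 summit, beside the leading site of that chromosome. Thus each TF had 1 of its 2 leading private places far from the other TF and 1 on the flank of a top shared site.

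Sites of genes that the study labelled as bound in all 5 species ranked higher in both TFs than sites of genes labelled as bound in tomato only. Of 678 labelled values, 569 could be tied to 1 site, and after 8 sites with both labels were left out the groups held 127 and 395 sites. Bound in all 5 species, the median fold change was 85.0 and 59.1 in GLK1 and 108 and 117 in GLK2. Bound in tomato only, it was 32.6 and 20.8 in GLK1 and 41.5 and 42.4 in GLK2. The median percentile of rank was 1.56 and 1.51 in GLK1 and 1.89 and 1.70 in GLK2 for the first group, against 6.12 and 6.35 in GLK1 and 6.85 and 6.55 in GLK2 for the second. The order of the groups was thus the same in each of the 4 libraries. Sites were tied to labels through GLK1 fold changes, so neither the labels nor any lean toward GLK1 is independent of these lists. The TFs did not overlap in rank at 77.2% of the sites bound in all 5 species and 76.2% of those bound in tomato only, against 61.1% of all sites and 75% of the 100 leading ones.

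Along whole chromosomes the shares of the TFs differed little, while single segments differed more, toward either TF. In the limma fit on the log2 share of reproducible summits, 3 of 12 chromosomes (25%) were called higher in GLK1 and 7 (58.3%) higher in GLK2. Shares add up to the whole library, so an excess on some chromosomes lowers the shares of the others, and the calls are not separate results. Chromosome 4 held 9.20% and 9.24% of the GLK1 summits against 8.51% and 8.52% of the GLK2 summits, a log2 difference of 0.11 ± 0.01 (SE). Chromosome 7 held 8.22% and 8.24% in GLK1 against 7.69% and 7.67% in GLK2. Chromosome 2, also called higher in GLK1, held 12.2% of the summits of both GLK1 libraries and 11.7% of those of both GLK2 libraries, and its difference of 0.05 became 0.04 and was not called on all deposited summits (limma adjusted p = 0.0702). Chromosome 11 ran the other way, with 5.54% and 5.52% in GLK1 against 5.99% and 5.95% in GLK2, and it also had the lowest share of sites with both TFs (43.6%). Reproducible summits of both replicates mark the same places by the rule, so their shares vary less than independent libraries would. With all deposited summits the limma fit called 2 chromosomes (16.7%) higher in GLK1, again 4 and 7, and 4 (33.3%) higher in GLK2. On reproducible summits, leaving out either GLK1 replicate left 3 chromosomes called higher in GLK2.

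The excesses of GLK1 on chromosomes 4 and 7 lay largely in 1 segment each, whereas calls toward GLK2 were spread over more and mostly sparser segments. In bins of 5 Mb, limma called 19 of 153 bins (12.4%) higher in GLK1 and 69 (45.1%) higher in GLK2 on reproducible summits, spread over 9 and 12 chromosomes. On all deposited summits it called 2 of 158 (1.27%) higher in GLK1 and 20 (12.7%) higher in GLK2. Leaving out 1 library reduced the calls toward GLK1 on reproducible summits to 7 (GLK1 replicate 1), 9 (GLK2 replicate 1) and 11 (GLK2 replicate 2), and those toward GLK2 to 39 (GLK1 replicate 1). The 2 bins called on all deposited summits were chromosome 4 from 60 to 65 Mb, with 917 and 896 reproducible summits in GLK1 and 855 and 860 in GLK2, and chromosome 7 from 0 to 5 Mb, with 565 and 548 in GLK1 and 521 and 502 in GLK2. Scaled to library totals, GLK1 was higher by 0.47 ± 0.04 on chromosome 4 and by 0.54 ± 0.05 on chromosome 7 (log2, SE, all deposited summits, limma adjusted p = 0.0178 for both). The other 63 bins with a mean of at least 100 summits ranged between -0.37 and 0.18. The lowest of these, also called, was chromosome 1 from 65 to 70 Mb, with 154 and 152 summits in GLK1 and 255 and 250 in GLK2.

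The largest differences toward GLK2 stood in thinly filled bins. On chromosome 12 from 35 to 40 Mb the deposited summits numbered 22 and 10 in GLK1 against 77 and 81 in GLK2, a log2 difference in share of -2.08 ± 0.21 (SE, limma adjusted p = 0.0219). Chromosome 1 from 20 to 25 Mb had 28 and 14 in GLK1 against 50 and 48 in GLK2, a difference of -1.01 ± 0.17 (limma adjusted p = 0.0428). Chromosome 11 from 15 to 20 Mb had 52 and 36 in GLK1 against 102 and 89 in GLK2, a difference of -0.87 ± 0.06 (limma adjusted p = 0.0178). On all deposited summits these 3 exceed in size the differences of the 2 bins called higher in GLK1, on far fewer summits. On reproducible summits the differences were -1.10 ± 0.04 on chromosome 12 and -1.23 ± 0.03 on chromosome 1 (log2, SE), both called. The chromosome 11 bin was not called there, at -0.01 ± 0.04, with 35 and 32 summits in GLK1 against 43 and 44 in GLK2.

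**Figure D4:**
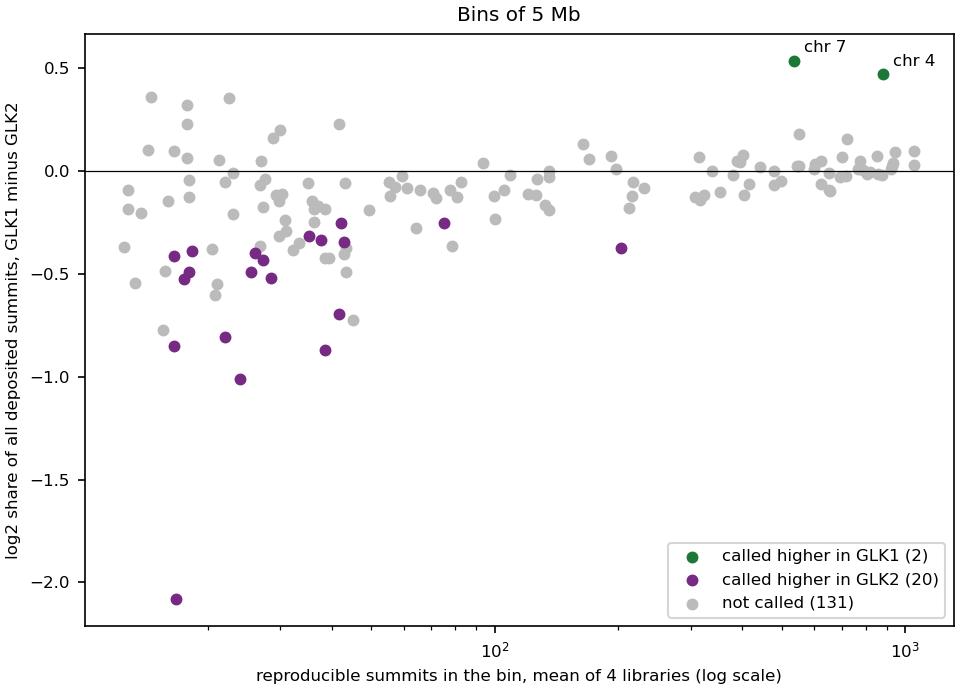
Difference in log2 share of all deposited summits, GLK1 minus GLK2 (y axis), against the mean number of reproducible summits (x axis, log scale) for 153 bins of 5 Mb, coloured by the limma call at an adjusted p below 0.05. The bins of chromosomes 4 and 7 called higher in GLK1, at 0.47 and 0.54, stand above all other densely bound bins, while 19 of the 20 bins called higher in GLK2 have a mean below 100 summits.

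The 2 segments called higher in GLK1 were chosen for an excess of GLK1 summits, so a raised share of GLK1-only sites there restates the choice. GLK1-only sites made up 30.6% of 1052 sites in the chromosome 4 bin and 33.9% of 667 sites in the chromosome 7 bin, against 18.2% of all sites. Sites shifted up in GLK1 by 10 points were 20.6% and 20.3% of the shared sites there, and those shifted up in GLK2 14.8% and 14.3%. The median difference in normal score was 0.13 in the chromosome 4 bin and 0.03 in the chromosome 7 bin, beside 0.02 over all sites, so in rank the chromosome 7 bin was close to the whole. In windows of 1 Mb with at least 50 sites, the GLK1-only share had a median of 17.8% and reached 37.9% between 3 and 4 Mb of chromosome 7 and 36.5% between 62 and 63 Mb of chromosome 4. The GLK2-only share had a median of 31.2% in the same windows and reached 50.6% between 5 and 6 Mb of chromosome 12 and 48.3% between 1 and 2 Mb of chromosome 11. Without the 2 bins, the share of chromosome 4 was 6.58% and 6.59% in GLK1 and 6.57% and 6.56% in GLK2, and its limma call was lost (adjusted p = 0.376). Chromosome 7 kept a smaller difference of 0.03 (log2) on reproducible summits. On the same summits without these bins, 4 chromosomes were called higher in GLK1 and 5 higher in GLK2. Chromosomes 6 and 8 were then called toward GLK1, while 3 and 5 lost their calls toward GLK2 (limma adjusted p = 0.298 and 0.116). On all deposited summits without these bins, 1 chromosome (chromosome 2) was called higher in GLK1 and 0 higher in GLK2, with 2 and 1 at an unadjusted limma p below 0.05. The bins to leave out were chosen after seeing the data, and whether cultivar has a part in these segments cannot be told apart from TF.

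**Figure D5:**
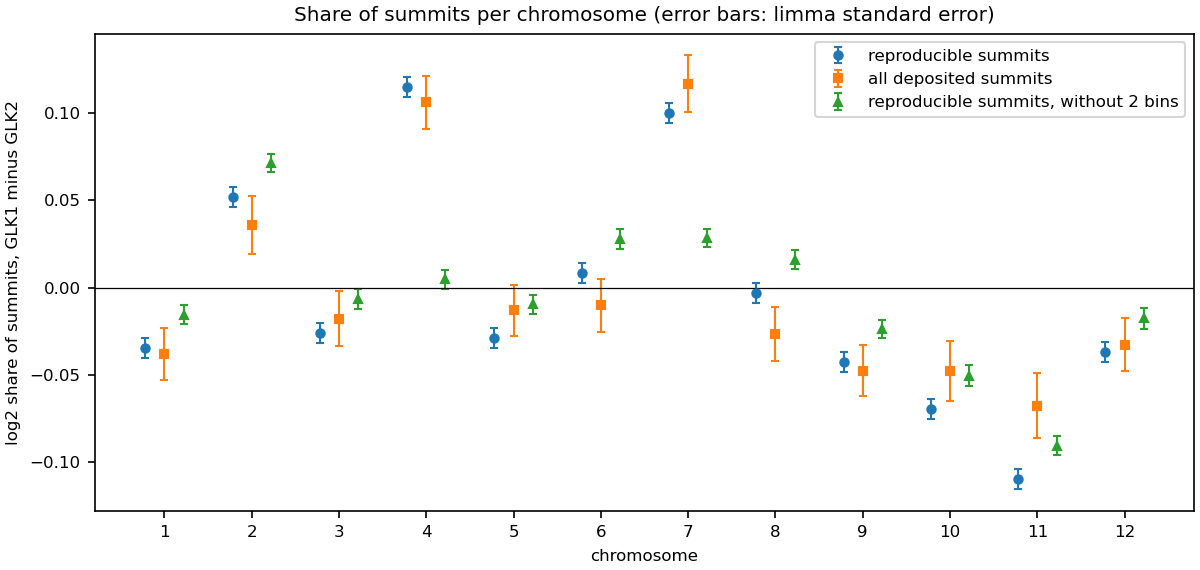
Difference in log2 share of summits per chromosome, GLK1 minus GLK2, with limma standard errors, for reproducible summits, all deposited summits and reproducible summits without the 2 bins of chromosomes 4 and 7. Chromosome 4 falls to 0.00 and chromosome 7 to 0.03 once the bins are left out, against 0.11 and 0.10 with them.

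The calls toward GLK2 came mostly from sparsely bound bins. The 69 bins had a median of 38.5 reproducible summits, against 197 for the 19 bins called higher in GLK1. Of 88 bins with a mean below 100 summits, 75 had a negative difference on all deposited summits, with a median of -0.19. The chromosome centres were accordingly somewhat fuller in GLK2: the outer 20% of the chromosomes at either end held 81.4% and 81.5% of the GLK1 summits and 80.0% of the summits in both GLK2 replicates.

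Among the 5 species, tomato came next after Arabidopsis in the share of sites with both TFs. Shared sites were 49.7% of all sites in tomato, beside 53.0% in Arabidopsis, 40.2% in tobacco, 33.8% in maize without organelle sequences and 10.3% in rice. Of the shared sites, 29.2% were shifted by 10 points in either direction in tomato, against 22.6% in Arabidopsis, 29.0% in tobacco, 35.8% in maize and 18.4% in rice. Each species gives 1 value and its lists differ in length, so no test was made.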

How the data were processed

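The 4 lists of ChIP-seq summits from tomato leaf were grouped by the labels as GLK1 and GLK2 with 2 replicates each. According to the methods and the submitters' processing notes, the authors aligned trimmed paired reads to the SL4.0 assembly with Bowtie2 (2.3.2), filtered and de-duplicated them with SAMtools and called peaks per library with MACS2 (2.2.1), splitting regions into summits. The deposited columns used are the fold enrichment of a summit, a linear ratio, and its p and q values as −log10. MACS2 was run against a control. What it was and any subsampling are not given in the sources used here, and the study states depth only as a range over tomato samples.

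Chains of reproducible summits with gaps below 150 bp made places (1 TF) and sites (both TFs). A site took the highest fold change per library. Normal scores of ranks, log2 shares per chromosome and log2 shares per 5 Mb bin (1 added to each count, bins with a mean of at least 10 summits) were tested with limma 3.58.1 in R 4.3.3, GLK1 minus GLK2, with Benjamini-Hochberg adjustment at 0.05. The fit on site ranks was also run on simulated data, but its recovery is not given here. The lack of site calls therefore does not show that no site differs. Intervals are 95% Wilson intervals.

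Named shared sites were the 6 leading per TF, the leading site per chromosome and the 8 widest gaps in normal score per direction. The gaps were used because no site was called. Named as well were the 2 leading places per TF without a summit of the other, and sites of the chlorophyll pathway. No value of the study's source data equalled a single list, but each of 16 chlorophyll values equalled, to its last digit, the mean fold change of both GLK1 replicates at 1 pair of summits and nowhere else. Of these values 3 are listed under both HEMF and POR. This matching, the labels of genes bound in all species and the 1 Mb windows were added after seeing the data. The members and lists were chosen with earlier results of these data known.

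Replicates came from separate plants according to the study. The limma p-values rest on the spread between 2 libraries per TF, drawn toward a common value over all features of a fit. In the chromosome fit on reproducible summits every chromosome had the same SE, 0.00575, so no p-value there reflects a chromosome's own spread. Reproducible summits of both replicates mark the same places by the rule, so chromosome and bin p-values on them understate the spread between independent libraries. Replicate numbers did not pair the libraries (correlation of same-number deviations -0.0065). Alternatives were other distances, minimum values, rank measures, bins, a replicate block and leaving out each replicate.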

Additional observations from a re-analysis of the deposited data

How the results depend on the processing

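With a fold change and −log10 q of at least 5, reproducible summits numbered 14554 and 14019 in GLK1 and 21802 and 21937 in GLK2, and with the highest summit per peak region 25224 and 25220 in GLK2. The share of GLK1 places with a GLK2 place was 63.3% at 75 bp, 77.9% with the minimum of 5 and 66.5% with the highest summit per region, and 53.3 to 80.7% without 1 replicate. The share of GLK2 places with a GLK1 place was 50.6%, 55.1% and 57.4% under the same changes and 47.8 to 77.8% without 1 replicate. For these shares without 1 replicate, the remaining list of that TF entered whole. Both ranges thus also reflect the loss of the reproducibility rule. A shift of 20 points left 1341 sites toward GLK1 and 1492 toward GLK2. Of the 100 leading sites, 91.0% were shared by the GLK1 replicates, 92.0% by the GLK2 replicates and 67.0% by GLK1 replicate 2 and GLK2 replicate 1. Of the 5000 leading sites the replicates shared 80.7% in GLK1 and 89.4% in GLK2. The outer 10% of the chromosomes held 58.6% of summits in both GLK1 libraries and 56.9% and 56.8% in the GLK2 libraries, and the outer 30% held 92.0% in both GLK1 libraries and 91.2% and 91.3% in GLK2.

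The 0 site calls of the rank fit became 1788 toward GLK1 and 2945 toward GLK2 on centred log2 fold changes and stayed at 0 with each other alternative. With a replicate block, limma called 0 sites, 3 chromosomes toward GLK1 and 7 toward GLK2, and 13 and 55 bins; the numbers do not pair the libraries. Chromosome calls toward GLK2 were 4 on all deposited summits, and 3 to 7 without 1 replicate, while those toward GLK1 were 3 to 4. Without the 2 bins of chromosomes 4 and 7, the chromosome calls were 4 and 5 on reproducible summits and 1 and 0 on all deposited summits. The bin fits tested 286 bins at 2 Mb, 83 at 10 Mb and 158 on all deposited summits, against 153 in the main fit. Counts of bin calls at these settings are therefore to be read against the number tested. At 10 Mb, 13 bins were called toward GLK1. Bin calls were 45 toward GLK1 and 108 toward GLK2 at 2 Mb, 40 toward GLK2 at 10 Mb, 2 and 20 on all deposited summits, and 7 to 14 and 39 to 47 without 1 replicate.

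Small chromosome differences turned sign at chromosome 6 on all deposited summits (-0.0101), at chromosome 8 (0.016 without the 2 bins, and -0.0084 to 0.0019 without 1 replicate), and at chromosomes 3, 4 and 5 on all deposited summits without the 2 bins (0.0027, -0.0145 and 0.0076). The direction of the 16 sites with the widest rank gaps was fixed by their choice. Peak lists give no read depth, so weak sites of 1 TF cannot be separated from sites missed in the other.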
